A study of Sus scrofa with 12 samples.

Results

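The genes described here are the heat shock proteins of pig liver and the co-chaperones that work with them. They comprise every gene whose single symbol in the array annotation begins with HSPA, HSPB, HSPD, HSPE, HSPH, HSP90, DNAJA, DNAJB or DNAJC, or with CCT or BAG and a number, with the endoplasmic reticulum chaperone HSPA5 set aside. The rule found 73 of the 13755 genes named on the array. HSPBP1, a nucleotide exchange factor for HSP70, and HSPBAP1, a binding partner of HSPB1, met the HSPB rule by the spelling of their symbols. They were grouped apart from the small heat shock proteins. Measured values played no part in the choice of genes, although earlier results of the same arrays were known when it was made. HSPA1A, HSPA4, HSPA9 and HSP90B1 are not among the 73 named genes and were not analysed here.

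Liver was sampled at day 140 from offspring of F1 sows (Large White × Landrace) and Hylean Maxgro sires, under postprandial conditions. RNA of 12 pigs was hybridized to the Affymetrix snowball array, with 1 array per pig. Residual feed intake (RFI) is the difference between the feed an animal eats and the feed predicted from its growth and body composition, so a low RFI stands for a high feed efficiency. By the sample labels 6 pigs had a low RFI (males P307, P308 and P309, females P310, P323 and P324) and 6 a high RFI (males P301, P302 and P303, females P304, P317 and P318). The study chose siblings of the same sex for its arrays, but the labels name no litter, so pigs were compared without pairs.

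Chaperones bind proteins that are not yet folded, or no longer folded, and keep them from sticking together. HSP70 proteins do so in cycles of ATP hydrolysis, in which J domain proteins of the DNAJ families deliver clients and trigger hydrolysis, while HSP110 proteins such as HSPH1, BAG proteins and HSPBP1 release the nucleotide. HSP90 receives partly folded clients from HSP70, the CCT ring folds actin and tubulin, HSPD1 and HSPE1 form the chaperonin of mitochondria, and small heat shock proteins hold unfolded clients without ATP. Many of the cytosolic members are induced together by the transcription factor HSF1 when unfolded proteins accumulate.

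Values are the deposited log2 intensities, given as mean ± SD of 6 pigs per class. Each gene was represented by its brightest probe set, that is, the group of probes with the highest mean over the 12 arrays. Because probe sets differ in how well they bind, levels were not compared between genes. Of the 73 genes, 9 (12.3%) had a mean below 3.50, the median of the array, among them DNAJB1, the main HSP40 of the heat shock response, at 1.45. Fitting was done with limma over all 47845 probe sets, and a difference was called at a q-value under 0.30, the threshold of the study. Throughout, a difference is the mean of low RFI minus that of high RFI as the labels name the classes, and this direction is opposite to the one the study gives for the probe sets it lists. An exchange of the class names in one of these sources would turn every direction given here, and it was not tested. Since tissue RNA was measured, fewer cells of a type and less RNA per cell cannot be told apart.

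The 6 hepatocyte markers, such as ALB and APOA1, had means from 10.25 to 14.04, and none of them differed between the RFI classes at a p under 0.05. Summed levels of the macrophage, stellate, endothelial, cholangiocyte, lymphocyte and erythroid markers overlapped between the classes, as did those of skeletal muscle. Only 0.378% of all genes had classes that did not overlap, and each sum mostly follows its brightest markers, so cell composition was not tested by this. The exception among single markers was the macrophage receptor CD163, which was 0.68 higher in low RFI (q = 0.54), and its part in the results was not tested. Background probe sets rich in G and C, which match no transcript, measured 6.55 ± 0.08 in low RFI and 6.69 ± 0.11 in high RFI.

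Between the RFI classes, none of the 73 chaperone genes was called at a q-value under 0.30. Across all named genes, 6 of 13755 were called, or 0.0436%. At an unadjusted p under 0.05, 3 chaperone genes were higher in low RFI (DNAJB14, DNAJB4 and HSPBAP1) and 2 were lower (HSPB1 and CCT5), together 6.85% of the 73. The same p was reached by 9.13% of all genes, 4.68% in the higher and 4.45% in the lower direction, so the share among chaperone genes was near the background. With the G and C rich background as a covariate, DNAJB4 kept a difference of 0.60 and a p under 0.05, while DNAJB14 with 0.31, HSPBAP1 with 0.13 and CCT5 with -0.74 did not reach that p. HSPB1 remained lower at that p, and DNAJA3 and HSPB2 were lower as well. The share of all genes at that p was not computed for the fit with this covariate.

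The median difference over the 73 genes was -0.02, as it was over all genes, and the median size of a difference was 0.11 in both. Values were positive for 32 genes and negative for 41, and they ran from -0.79 for CCT5 to 0.58 for DNAJB4. Over all genes, 6176 were positive and 7579 negative. No chaperone gene had RFI classes that did not overlap, a pattern seen in 0.378% of all genes. The spread between pigs was also like that of other genes, with a median SD of 0.25 against 0.23.

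**Figure D1:**
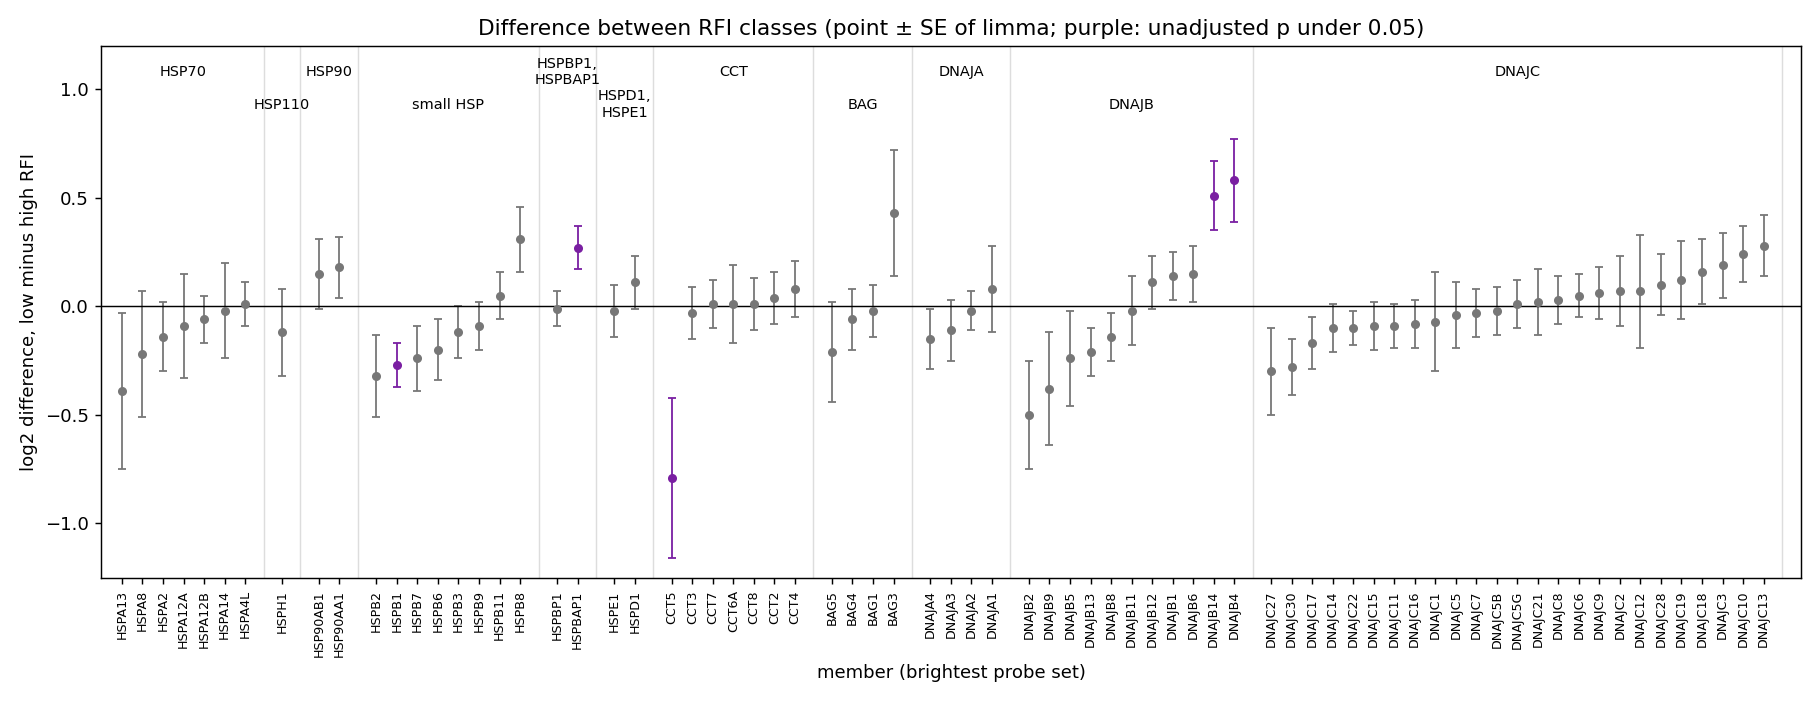
Difference between the RFI classes for each of the 73 chaperone genes, as log2 low minus high RFI on the vertical axis, with genes grouped by family along the horizontal axis. Points are differences, bars are standard errors from limma, and purple marks an unadjusted p under 0.05, which 5 genes reached and none kept at a q-value under 0.30.

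Among the HSP70 genes, no member reached a p under 0.05, and 6 of the 7 differences were negative, 1 of them only -0.02 (HSPA14). Negative differences were also the more frequent over all genes, 7579 of 13755. HSPA8, the constitutive cytosolic HSP70, ranged from 9.62 to 10.44 in low RFI with a median of 9.85, and from 9.31 to 11.11 in high RFI with a median of 10.04. The high RFI class held both the highest pigs (P302 at 11.11, P304 at 10.87) and the lowest (P318 at 9.31, P301 at 9.50), so the low RFI values lay inside its range. The difference was -0.22, with a 95% confidence interval from -0.83 to 0.40. HSPA13, an HSP70-like protein of the endoplasmic reticulum, showed the same kind of spread. It lay between 6.06 and 6.19 in P302, P303 and P304, at 6.05 in P323, and between 4.13 and 5.20 in the other pigs, with a difference of -0.39 (-1.16 to 0.38). HSPA12A, a distant relative of HSP70 without a known refolding role, differed by -0.09 and HSPA2, best known from testis, by -0.14, neither beyond its spread.

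HSPH1, the HSP110 that releases ADP from HSP70, measured 5.34 ± 0.40 in low RFI and 5.45 ± 0.39 in high RFI. The difference of -0.12 had an interval from -0.56 to 0.32. P302 of high RFI with 6.10 and P323 of low RFI with 6.07 were the highest, and the other pigs lay between 4.98 and 5.59.

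The cytosolic HSP90 genes both had small positive differences within their spread. HSP90AA1, the inducible form, measured 9.18 ± 0.21 in low RFI and 9.0 ± 0.30 in high RFI, a difference of 0.18 (-0.12 to 0.49). HSP90AB1, the constitutive form, measured 10.20 ± 0.26 and 10.06 ± 0.35, a difference of 0.15 (-0.20 to 0.50) that turned to -0.09 with the G and C rich background as a covariate. Among the 14 measured co-chaperones of HSP90, none was higher at a p under 0.05 (4.68% of all genes) and 1 was lower (4.45% of all genes). By the annotation the lower one is CDC37, which brings kinases to HSP90, but its only probe set carries the name of a microRNA, so its value is not given as that of CDC37.

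Small heat shock proteins carried one of the lower members. HSPB1, which holds unfolded clients and binds actin filaments, ranged from 7.79 to 8.19 in low RFI (median 8.07) and from 8.15 to 8.44 in high RFI (median 8.30). All low RFI pigs lay below the high RFI mean, and the classes overlapped only between 8.15 and 8.19. Its difference was -0.27 (SE 0.10, 95% confidence interval -0.48 to -0.07, q = 0.534). The other probe set of HSPB1 gave -0.26 (q = 0.604), just short of a p under 0.05.

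HSPB8, a partner of BAG3 in the removal of damaged proteins, ran the other way. It ranged from 7.57 to 8.01 in low RFI and from 7.0 to 7.99 in high RFI, where P317 with 7.99 stood above the next pig at 7.56. The difference of 0.31 (q = 0.6) did not reach a p under 0.05. Without P317 it was 0.42 and was called (q = 0.267), as were DNAJB14, DNAJB4 and HSPBAP1, in a fit in which 3.74% of all genes were called. HSPB2 and HSPB7, which are best known from muscle, differed by -0.32 and -0.24 and did not reach a p under 0.05. The mean of HSPB7, 3.28, lay below the median of the array. CRYAB, the alpha B crystallin, is no member by its symbol but neighbours HSPB2 in the pig genome (assembly Sscrofa11.1). It measured 7.03 ± 0.50 in low RFI and 7.64 ± 0.43 in high RFI (-0.60, q = 0.551). The females P323 and P324 gave the lowest values of both neighbours, 6.35 and 6.53 for CRYAB and 6.34 and 6.22 for HSPB2.

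HSPBAP1 was higher in low RFI at the unadjusted p. It ranged from 4.76 to 5.20 in low RFI and from 4.53 to 4.94 in high RFI. P324 was the low RFI pig nearest to the high RFI mean, and P317 the highest pig of the other class. The difference was 0.27 (SE 0.10, q = 0.536). HSPBP1 had one of the smallest differences, -0.01 (-0.17 to 0.15), and an SD of 0.07, the lowest of the 73.

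Mitochondrial chaperonin genes did not separate the classes. HSPD1 measured 9.24 ± 0.08 and 9.12 ± 0.28, and its difference of 0.11 had an interval from -0.14 to 0.37. HSPE1, which caps the HSPD1 ring and lies next to it in the genome, measured 8.46 ± 0.23 and 8.48 ± 0.16, with a difference of -0.02. Of the 8 measured genes of mitochondrial quality control, 1 was higher at a p under 0.05, where 4.68% of all genes were higher. It was CLPX, which unfolds proteins for the protease CLPP, with 8.64 ± 0.20 in low RFI and 8.25 ± 0.22 in high RFI (0.38, q = 0.513).

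Of the 7 CCT genes, 6 had differences between -0.03 and 0.08, and CCT5 stood alone. In low RFI it measured 7.01 in P307, 5.47 in P308, 8.15 in P309, 7.75 in P310, 7.90 in P323 and 7.28 in P324. In high RFI it lay between 7.59 and 8.74. One pig, P308, was far below every other. The difference was -0.79 (SE 0.37, q = 0.598), and without P308 it was -0.44 (q = 0.687). The other probe sets of CCT5 gave -0.23 and 0.06, and in the first of them P308 measured 7.09, the highest of the low RFI pigs. Among the prefoldin subunits, which pass clients to CCT, and TCP1, 8 genes were measured and 1 reached a p under 0.05. It was PFDN4 with a difference of -0.32 (q = 0.595), where 9.13% of all genes reached that p.

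By their brightest probe sets, differences of the 4 BAG genes did not reach a p under 0.05. BAG3, which links HSP70 to autophagy, measured 6.93 ± 0.76 in low RFI and 6.49 ± 0.34 in high RFI. Its difference of 0.43 (-0.20 to 1.07, q = 0.678) was carried by the females P323 at 7.94 and P324 at 7.85, as all other pigs lay between 6.08 and 7.03. Without P323 it was 0.23. The other probe set of BAG3 had the same highest pigs, at 8.07 and 7.49, and gave 0.76 (q = 0.58), which did reach a p under 0.05. In it 5 of 6 low RFI pigs lay above the high RFI mean. BAG1, BAG4 and BAG5, the other exchange factors, differed by -0.02, -0.06 and -0.21.

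Among the J domain proteins, the DNAJB family held both members with the lowest p. DNAJB14, anchored in the membrane of the endoplasmic reticulum with its J domain facing the cytosol, measured 4.43, 4.52, 4.41, 3.69, 4.68 and 4.07 in the low RFI pigs P307, P308, P309, P310, P323 and P324. In high RFI it lay between 3.45 and 4.0 with a median of 3.82. The 5 low RFI pigs other than P310 lay above every high RFI pig. Its difference was 0.51 (SE 0.16, 95% confidence interval 0.16 to 0.85, q = 0.513).

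DNAJB4, a cytosolic J protein close to DNAJB1, lay between 4.38 and 5.04 in low RFI (median 4.74) and between 3.34 and 4.47 in high RFI (median 4.36). Only P310 with 4.38 fell inside the high RFI range, and P304 with 3.34 was far below the rest of its class. The difference was 0.58 (SE 0.19, 0.18 to 0.98, q = 0.517). DNAJB14, DNAJB4 and DNAJA2 are also in the table of altered transcripts of the study, which was drawn from the same pigs and is no independent evidence.

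DNAJB2, which sorts clients towards the proteasome, measured 5.35 ± 0.65 and 5.84 ± 0.27, with P308 lowest at 4.36, and its difference of -0.50 (q = 0.618) did not reach a p under 0.05. All 4 of its probe sets gave negative differences, and a dimmer one with -0.22 (q = 0.589) did reach that p. DNAJB9, an endoplasmic reticulum J protein that binds HSPA5, differed by -0.38 (-0.94 to 0.17). DNAJB1 differed by 0.14, but its probe set was too dim to be read further.

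**Figure D2:**
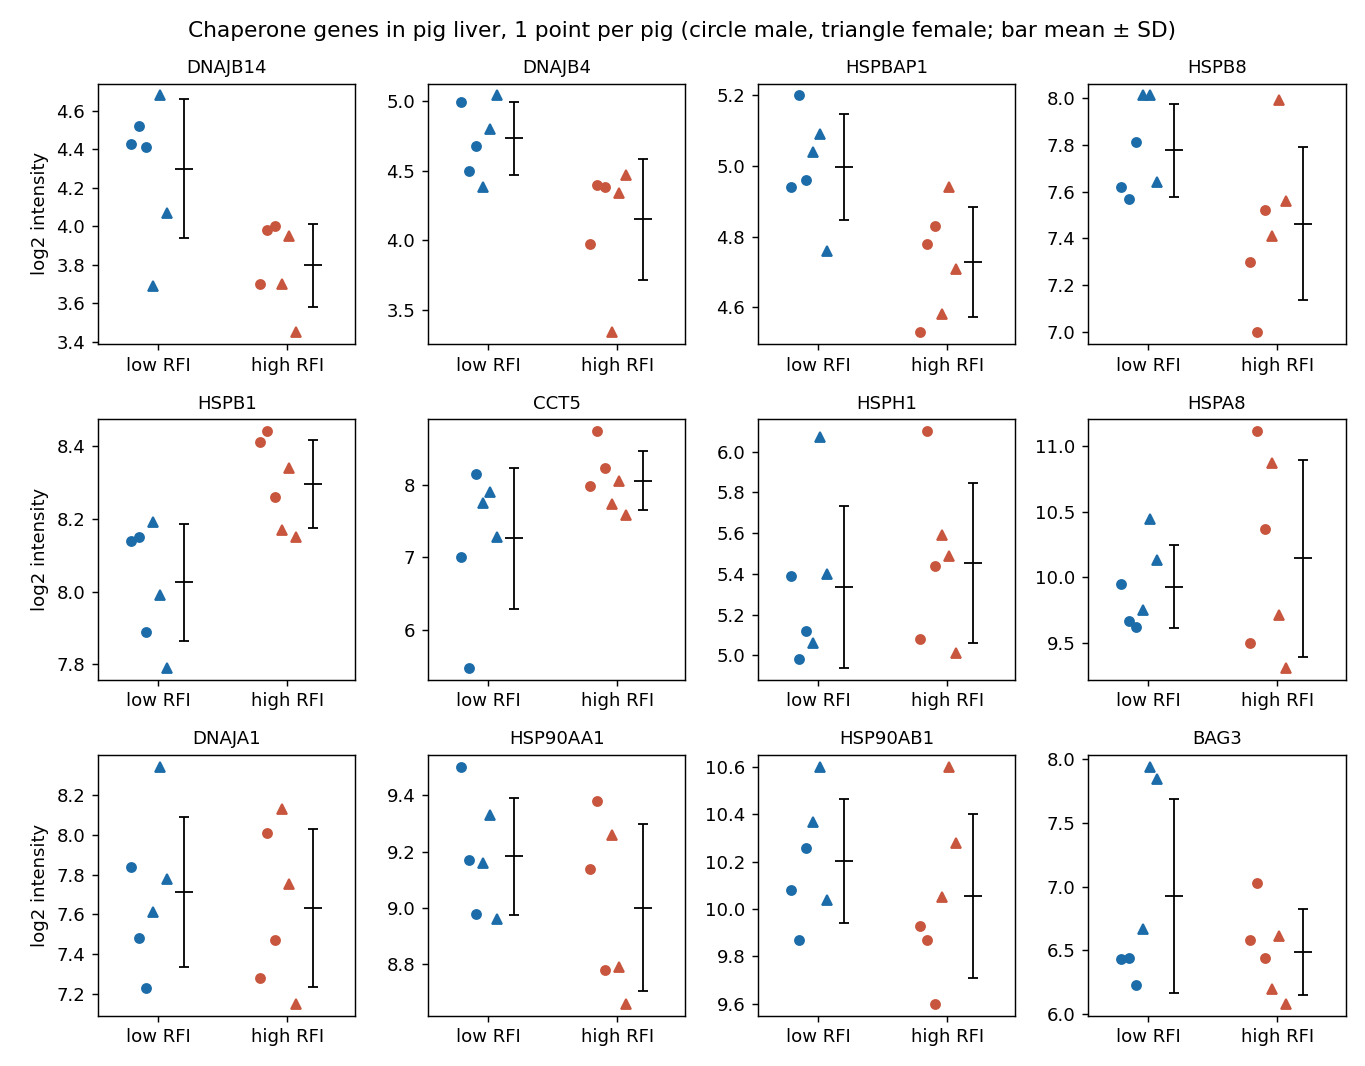
Log2 intensity of 12 chaperone genes on the vertical axis, with low RFI in blue and high RFI in red. Each point is 1 pig (circle male, triangle female), and bars mark the class mean ± SD. The classes overlap for each gene shown, and single pigs such as P308 for CCT5 at 5.47 and P323 for BAG3 at 7.94 stand apart.

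For DNAJA2, a partner of HSP70 in refolding, the answer depended on the probe set. The brightest one measured 7.59 ± 0.15 in low RFI and 7.61 ± 0.13 in high RFI, a difference of -0.02 (-0.22 to 0.19). Another, with a mean of 7.09, measured 6.80 ± 0.29 and 7.37 ± 0.17. There the low RFI pigs ran from 6.35 to 7.23 and the high RFI pigs from 7.11 to 7.59, with P323 the only low RFI pig above the lowest of the other class. That difference was -0.57 (SE 0.13, q = 0.438). DNAJA1 and DNAJA3, the latter of mitochondria, differed by 0.08 and -0.11, and DNAJA4 by -0.15.

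The 73 genes have 121 probe sets, and 33 of the genes have more than 1. In 20 of these 33 the probe sets gave differences of one sign, and in 13 they did not. Of the 121 probe sets, 10 reached a p under 0.05, against 7.29% of all probe sets on the array.

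**Figure D3:**
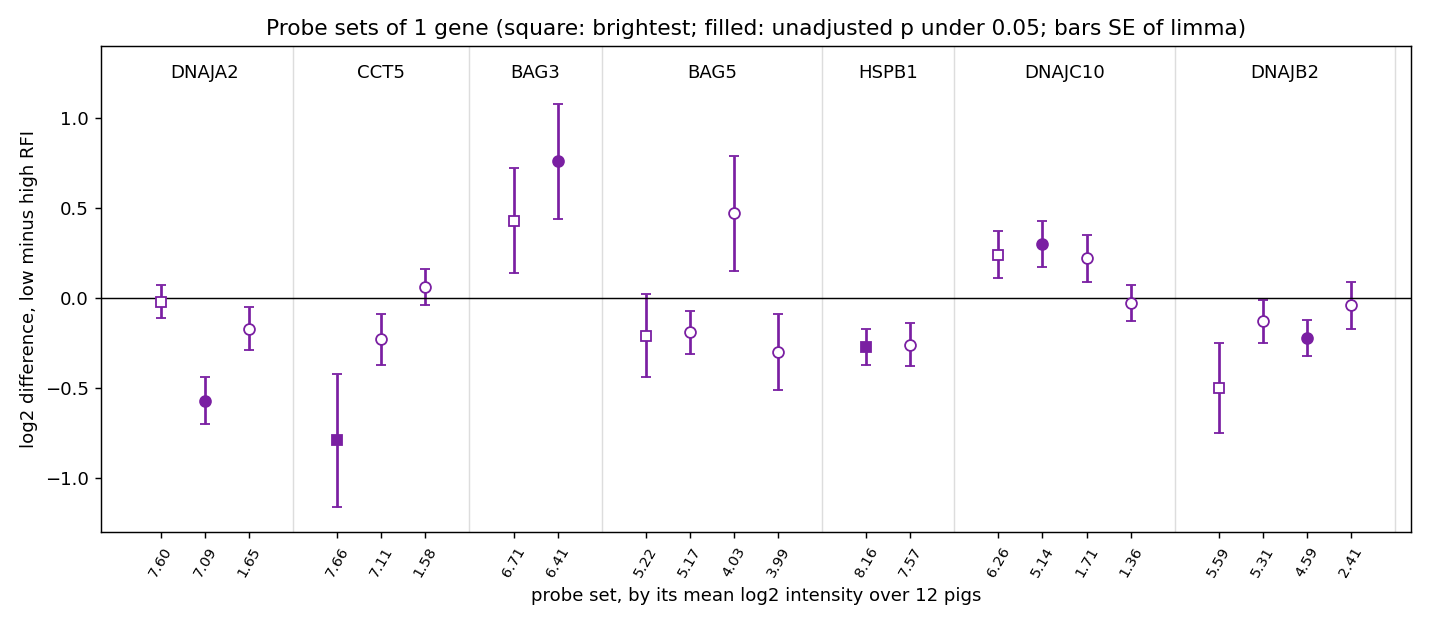
Differences of every probe set of DNAJA2, CCT5, BAG3, BAG5, HSPB1, DNAJC10 and DNAJB2, as log2 low minus high RFI, with the mean log2 intensity of the probe set along the horizontal axis. Squares are the brightest probe set of a gene, filled points have an unadjusted p under 0.05, and bars are standard errors from limma. DNAJA2 spans -0.57 to -0.02 and CCT5 spans -0.79 to 0.06.

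None of the 25 DNAJC genes reached a p under 0.05 by its brightest probe set. DNAJC30, a mitochondrial J protein, came closest from below with 4.48 ± 0.30 in low RFI and 4.76 ± 0.13 in high RFI (-0.28, q = 0.6), where P307 at 4.07 and P324 at 4.13 were lowest. DNAJC13, which acts on clathrin at endosomes, measured 5.36 ± 0.30 and 5.08 ± 0.18 (0.28, q = 0.612), with P308 highest at 5.87. DNAJC10, a disulfide reductase of the endoplasmic reticulum, differed by 0.24 (q = 0.638). Of its 4 probe sets 3 gave positive differences, and a dimmer one with 0.30 (q = 0.588) did reach a p under 0.05. A dimmer probe set of DNAJC5G did so as well (0.31, q = 0.589), but its mean of 2.68 lay below the median of the array. DNAJC12, known for guarding aromatic amino acid hydroxylases, differed by 0.07 (-0.50 to 0.64).

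By place in the cell, 8 of the 73 genes were assigned to the endoplasmic reticulum and 7 to mitochondria. Genes without an assignment were counted as cytosol, nucleus or other, so these groups may be incomplete. In the first group 1 gene was higher at a p under 0.05, DNAJB14, and the other 7 did not pass. Over all genes, 4.68% were higher and 4.45% lower at that p. In the mitochondrial group none passed, with differences from -0.28 to 0.12. These groups were formed after the values had been seen. Outside the 73, 13 folding factors of the endoplasmic reticulum were measured. At a p under 0.05, 1 was higher (ERO1L, an oxidase for disulfide bonds, 0.42, q = 0.561) and 1 lower (CRELD2, -0.41, q = 0.589). HSPA5, the HSP70 of that compartment, measured 9.95 ± 0.28 in low RFI and 10.49 ± 0.73 in high RFI, a difference of -0.54 (-1.13 to 0.05, q = 0.623). P302, P303 and P304 were its highest pigs, at 11.42, 11.01 and 10.92, as they were for HSPA13.

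Of 18 listed textbook targets of HSF1, 13 were measured, with DNAJB4 higher, HSPB1 lower and 11 not passing a p under 0.05, where 4.68% of all genes were higher and 4.45% lower. HSF1 itself measured 6.37 ± 0.11 in low RFI and 6.65 ± 0.31 in high RFI, where P303 at 7.12 and P302 at 6.97 were the highest. Its difference was -0.29 (q = 0.595), and the other 3 measured regulators, HSF2 among them, did not pass. HSBP1 at 1.72 and HSBP1L1 at 1.65 had means below the median of the array. So did DNAJB1 at 1.45 and HSPA4L at 2.03 among the targets, and such dim probe sets say little by not passing. None of 9 further partners of HSP70, such as the ubiquitin ligase STUB1, passed in either direction. Of 5 crystallins and other heat shock genes, HSPBAP1 was higher, CRYAB lower, and 3 did not pass.

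With the filter that the study applied, by which probe sets of very low or very high SD are left out, 55 of the 73 genes were kept. One of them was called, DNAJB14 with a q-value of 0.115, against 3.33% of the genes kept. Over probe sets, the second one of DNAJA2 was called as well (q = 0.0386), where the background was 2.66%. DNAJB4 was left out by the filter as read here.

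Sex was the second factor of the design, with 3 males and 3 females per class. No chaperone gene differed by sex at a q-value under 0.30, against 0.0582% of all genes. At a p under 0.05 there were 5, or 6.85% against a background of 7.08%. HSP90AB1 ranged from 10.04 to 10.60 in females and from 9.60 to 10.26 in males. Females averaged 10.32 ± 0.25 and males 9.94 ± 0.22, which is a difference of 0.39 (SE 0.13, q = 0.67). DNAJC5, a J protein of secretory vesicles, was 0.35 higher in females (q = 0.672) and HSPB8 0.30 higher (q = 0.75). HSPB2 differed by -0.43 (q = 0.706) and HSPB6 by -0.27 (q = 0.763), both lower in females.

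The difference between RFI classes was also compared between the sexes. For this interaction 5 chaperone genes had a p under 0.05, where 4.25% of all genes did, and none had a q-value under 0.30. The lowest p was that of BAG3. Its low RFI females measured 6.67, 7.94 and 7.85 and its high RFI females 6.20, 6.61 and 6.08. In males the low RFI pigs measured 6.43, 6.44 and 6.23 and the high RFI pigs 6.58, 7.03 and 6.44. The difference was 1.19 in females and -0.32 in males, and the interaction was 1.5 (q = 0.962). FKBP5, a co-chaperone of HSP90 and a well known glucocorticoid target, had the same highest pigs as BAG3, with 8.13 in P323 and 7.89 in P324 and values from 4.79 to 7.22 in the others. The other interactions were -1.03 for DNAJC1, -0.89 for DNAJC27, -0.51 for DNAJC10 and 0.46 for DNAJC5B. DNAJC27 at 3.29 and DNAJC5B at 2.88 had means below the median of the array. The other probe set of DNAJC27 gave an interaction of -0.05.

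How the members vary together was described from HSPH1, with class means removed, across the 12 pigs. Of the 72 other members, 12 correlated with HSPH1 at a permutation p under 0.05, all of them positively. Among all genes the share was 7.82%, and 4.47% with an r above 0. By Spearman's rho 14 members passed, against 7.02% of all genes, and 11 passed by both. With class means kept, 13 passed, against 7.74% of all genes. After Benjamini-Hochberg adjustment over all 13754 genes correlated with HSPH1, no gene passed 0.05.

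The highest correlation was that of DNAJA1, the J protein that serves HSPA8 in the cytosol, with r = 0.88 (permutation p = 0.00049, adjusted p = 0.342) and rho = 0.89 (permutation p = 0.0006). HSPA8 followed with r = 0.84 (permutation p = 8e-05, adjusted p = 0.342) and rho = 0.85 (permutation p = 0.00071). HSPA13 also had r = 0.84, with rho = 0.82. DNAJA3 had 0.83, DNAJC16 0.82, HSPA2 0.78, CCT6A 0.77, CCT8 0.76, DNAJB9 0.75, CCT3 0.71, BAG3 0.70 and DNAJB6 0.68. At the other end stood DNAJC1 with -0.43 and DNAJC22 with -0.35, leaving aside the dim DNAJB1. HSP90AB1 with 0.16 and HSPD1 with -0.25 did not follow HSPH1.

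**Figure D4:**
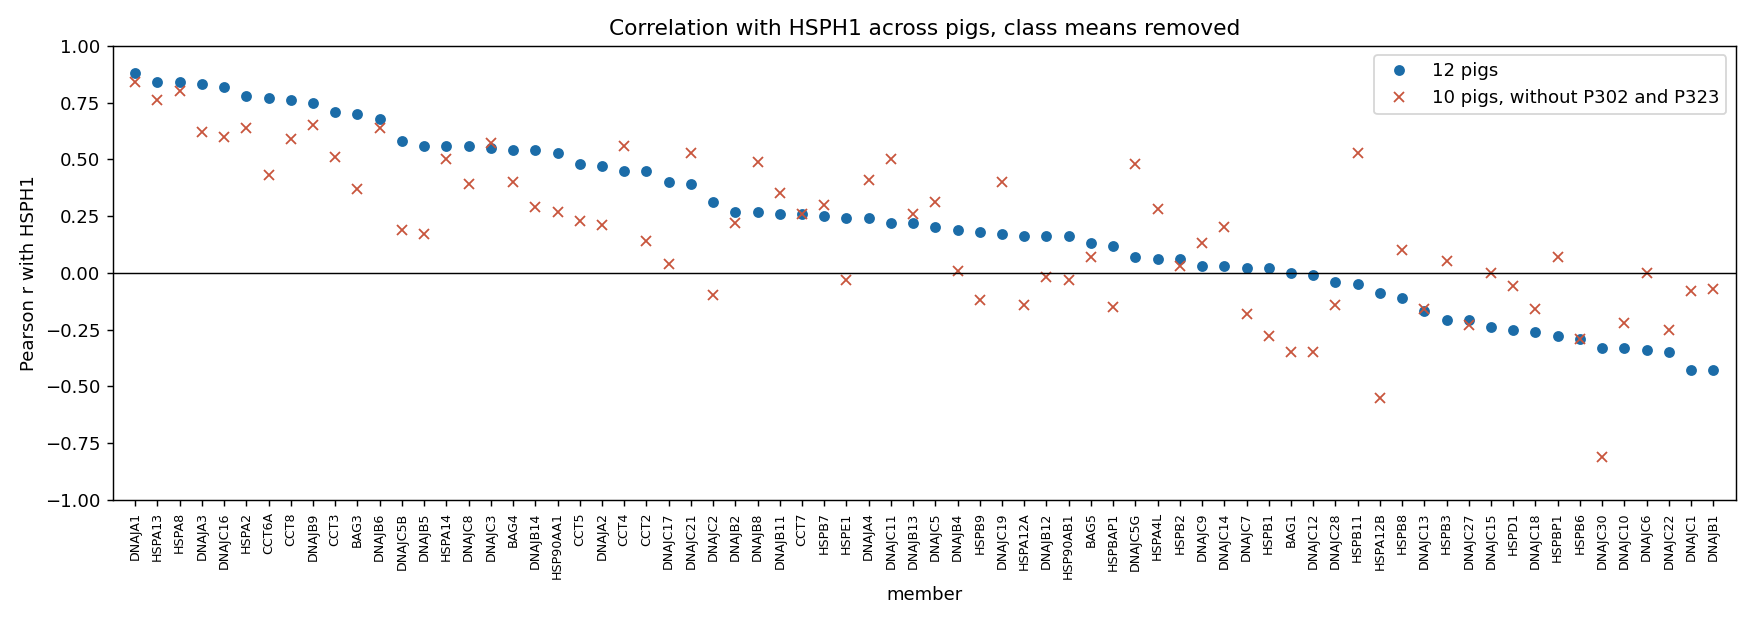
Pearson r of each of the other 72 chaperone genes with HSPH1 across 12 pigs, class means removed, with genes ranked by r along the horizontal axis. Blue points are 12 pigs and red crosses leave out P302 and P323. The 12 genes with a permutation p under 0.05 run from 0.68 for DNAJB6 to 0.88 for DNAJA1.

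The relation was computed again without the pigs of highest HSPH1, P302 of high RFI and P323 of low RFI. With the remaining 10 pigs, 5 members passed a permutation p under 0.05, against a background of 4.58%, and 4 of these were among the 12. They were DNAJA1 (r = 0.84), HSPA8 (0.80), HSPA13 (0.76) and DNAJB6 (0.64), while the fifth, DNAJC30, was negative. After Benjamini-Hochberg adjustment over all genes, the permutation p of each of these 5 in the 10 pigs was 0.987. The other 8 of the 12 no longer reached an unadjusted permutation p under 0.05, and r was lower for each of them. It was 0.65 for DNAJB9, 0.64 for HSPA2, 0.62 for DNAJA3, 0.60 for DNAJC16 and 0.59 for CCT8. For CCT3 it was 0.51, for CCT6A 0.43 and for BAG3 0.37. HSPH1 itself had an r of -0.40 with the G and C rich background. Among the 12 genes, r with that background ran from -0.66 for DNAJA3 to -0.0 for HSPA2. It was -0.51 for DNAJA1 and -0.13 for HSPA8. The part of this background in the correlations was not tested.

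**Figure D5:**
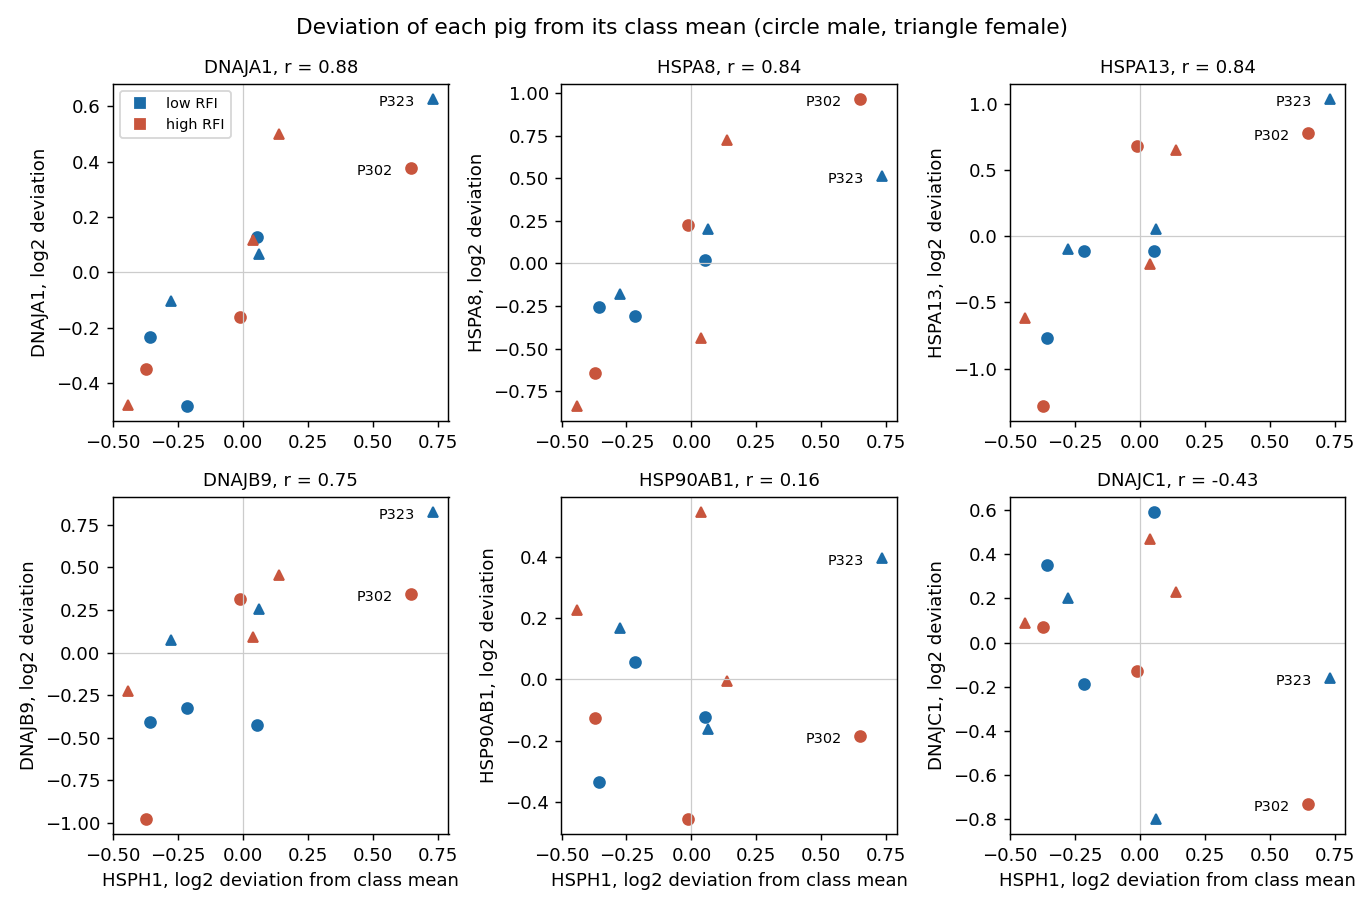
HSPH1 (horizontal axis) against 6 other chaperone genes (vertical axis), as log2 deviation of each pig from its class mean, blue for low and red for high RFI. P302 and P323 lie at the upper end of HSPH1, and r runs from 0.88 for DNAJA1 to -0.43 for DNAJC1.

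Outside the 73 genes, 60 listed partners were set against HSPH1 in the same way, and 8 had a permutation p under 0.05, where the share over all genes was 7.82%. They included the HSP90 co-chaperones PPID (r = 0.83), CHORDC1 (0.82) and STIP1 (0.75), which hands clients from HSP70 to HSP90, and HSPA5 (0.77). Without P302 and P323 none of the 8 reached that p, and r was 0.65 for PPID, 0.27 for CHORDC1, 0.58 for STIP1 and 0.67 for HSPA5.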

How the data were processed

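Arrays were scanned by the authors using GCOS 1.1.1, and RMA was used to normalize them. The deposited table holds log2 values from 0.39 to 14.26 for 47845 probe sets, 1 array per pig. Arrays have no depth, so precision is limited by the 6 pigs of each class. For RNA extraction and target preparation, the paper and the sample labels name different kits. The platform annotation names 26426 probe sets.

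RFI class was the only factor in limma 3.58.1 (R 4.3.3). Storey's q-value was taken over all probe sets, with lambda from 0.05 to 0.90. For sex, the model held RFI class too, and a further model held their interaction. The scripts were tested on simulated data. Correlations used Python 3.11.15, numpy 2.4.6 and scipy 1.17.1, with 1e+05 permutations within classes, two-sided.

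Members and lists were chosen with earlier results of these data known. The correlations were planned with an adjustment over the members alone. This was replaced, after its result had been seen and some members had passed, by unadjusted p beside the share of all genes and by adjustment over all genes, under which none passed. Genes in the plots of levels and of HSPH1 were picked after their values had been seen.

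Genes named by rule were those called, the 8 lowest p in each direction, the 8 largest SD, the 10 highest means, the 5 highest and 3 lowest r, those in the study's table, and up to 4 genes of each other list by lowest p. Some others, including CCT6A, CCT8, BAG1 and CHORDC1, were named after their values had been seen. Alternatives changed the filter, threshold, covariates, variance model, weights, scaling, pigs and probe set per gene. No sequence was used, and gene positions served only to name neighbouring genes.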

Additional observations from a re-analysis of the deposited data

Results flagged for a closer look

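Dixon's test for a single far value among 6 pigs was run on the 33 members named by rule in both classes, 66 tests in all, and found a pig far from its class in 2. Chance gives about 1 in 20. DNAJA3, a mitochondrial J protein, measured 7.15 in P323, while the next low RFI pig had 6.72. DNAJC10 measured 5.91 in P302, while the next high RFI pig had 6.16.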

How the results depend on the processing

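The count of members called at a q-value under 0.30 was 0, and it was 1 with the filter on SD. When each pig was left out in turn it ranged from 0 to 4. The 4 were DNAJB14, DNAJB4, HSPBAP1 and HSPB8, without P317 of high RFI (replicate 5), where 3.74% of all genes were called. Members higher at a p under 0.05 (3) fell to 1 with the G and C rich background as a covariate (DNAJB4), and to 1 in females only (BAG3), and ranged from 3 to 6 when each pig was left out, with 6 without P317. Members lower (2) were 1 with sex as a covariate, with array weights and in males only, 4 with the mean over all probe sets of a gene, and 1 to 6 when each pig was left out, with 6 without P309. The median difference then ranged from -0.05 to 0.00. Members that differed by sex (5) ranged from 3 to 5, with 3 without P308, and none was called by sex. For these counts at a p under 0.05 in the alternative fits, the share of all genes was not computed. They therefore cannot be set against a background. Correlated members (12) fell to 5 without P302 and P323, and were 13 with class means kept. Of 743 differences of the 33 members named by rule under the alternatives, 38 values of 16 members had the opposite sign, none of them at a p under 0.05 before or after, and the cause was not tested. In males only these were BAG3 (-0.32), DNAJC27 (0.15), DNAJC1 (0.44), DNAJC5 (0.08), HSPA12A (0.05) and DNAJA1 (-0.07). In females only they were HSPA8 (0.15), DNAJC12 (-0.26), DNAJC10 (-0.02), HSPE1 (0.04), CCT3 (0.09), DNAJA3 (0.02) and DNAJC16 (0.04). With the G and C rich background as a covariate they were HSP90AB1 (-0.09), HSPD1 (-0.08), HSPA12A (0.05) and DNAJA1 (-0.20), and with the mean over probe sets DNAJC1 (0.01). When each pig was left out, DNAJA2 ran from -0.06 to 0.02, DNAJC12 from -0.13 to 0.22, HSPA12A from -0.28 to 0.02, HSPE1 from -0.07 to 0.06, CCT3 from -0.08 to 0.05, DNAJC1 from -0.22 to 0.09, DNAJC5 from -0.12 to 0.02 and DNAJA1 from -0.04 to 0.18. No paired analysis was possible because the labels give no litter or sibling, and replicate numbers only follow accession order. Precision is limited by the 6 pigs per class, as for HSPA8, whose interval ran from -0.83 to 0.40.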
